A study of Mus musculus with 4 samples.

Results

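Cxcl14-type fibroblasts are the fibroblasts of the mouse heart whose counts of Cxcl14, Smoc2 and Dpep1 together lead over 2 other sets of 3 genes. They were 3108 of the 38910 barcodes that passed the cell filter, and of the 39731 barcodes deposited. Members were chosen by their own measured counts, so the genes of the rule are no finding. Each had at least 3 UMIs of Cxcl14, Smoc2 and Dpep1 together, where a UMI is a molecular tag that counts an RNA molecule once. That sum exceeded the sum of Pi16, Cd248 and Sema3c and the sum of Mfap4, Osr1 and Nkain3. Before that step a fibroblast gate asked for Pdgfra, at least 5 UMIs of Dcn and Gsn, no UMI of Ptprc, Pecam1 or Cdh5, and at most 2 UMIs of Ccl2 and Ccl7. The gate held 5480 cells: the 3108 members, 1475 cells led by the Pi16 set (Pi16-led), 510 led by the Mfap4 set (Mfap4-led) and 387 with no leading set.

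The study measured interstitial cells, the heart's cells other than cardiomyocytes, by 10x Genomics 3′ single-cell RNA sequencing in 2 stroke and 2 control hearts, taken 1 month after stroke or the control condition. All 4 samples carried the Ccr2creERT2-Ai14 alleles, an inducible Cre recombinase driven by Ccr2, a gene of monocytes, together with a Cre-dependent tdTomato reporter. Age, and whether animals were pooled, are not given in the sources used here. The counts come as 1 table of 4 libraries numbered by the ending of each barcode, and the labels do not say which sample each number is. Stroke and control were therefore not compared within these fibroblasts. The table counts as 1 sample, so every difference between cell types is a description without a p-value, and its 95% interval covers counting error only.

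Cardiac fibroblasts make and remodel the collagen network between cardiomyocytes and capillaries. After injury some of them become activated, and then they secrete more matrix. Resting fibroblasts of many tissues fall into a Pi16-bearing type that lies mainly around large vessels and types that lie within the tissue. Cxcl14 encodes a chemokine, Smoc2 a secreted calcium-binding matrix protein, and Dpep1 a membrane peptidase that cleaves dipeptides and leukotriene D4. The other marker genes of the type are Ogn, which encodes the proteoglycan osteoglycin, Gpx3, a secreted glutathione peroxidase, and Col6a3, a collagen VI chain.

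On build GRCm38 (mm10) all 6 are protein-coding genes. Cxcl14 spans chr13:56288643-56296551 on the minus strand, and Smoc2 spans chr17:14279506-14404790 on the plus strand. Dpep1 spans chr8:123186242-123201812 on the plus strand. Ogn lies at chr13:49608046-49624501 on the plus strand and Gpx3 at chr11:54902453-54910377 on the plus strand. Col6a3 lies at chr1:90765923-90843971 on the minus strand.

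The libraries held 9168 to 10473 barcodes and 31955157 to 45834980 UMIs. Library 3 stood apart: it gave the fewest members, and Xist, which female cells transcribe from the inactive X chromosome, was at 0.422 CPM (UMIs per 1000000 UMIs of the group) in its members against 633 to 685 CPM in those of the other libraries. Ddx3y, a gene of the Y chromosome, was at 88.2 CPM in members of library 3 and at 0 to 0.679 CPM in those of the others. Of 39570 barcode sequences, 161 occurred in more than 1 library, 22 of them with a member cell and 1 with members in more than 1 library. Members totalled 20520284 UMIs, with a median of 6400.5 UMIs and 2613 genes per cell and 2.61% mitochondrial UMIs. The doublet caller marked 21 members, which stayed in.

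Under the rule used, the type was the most frequent of the gated fibroblasts in every library. This order did not hold without Smoc2 in the set and with a lower minimum for its remaining genes. Then 1881 of the 5480 gated cells were members and 2399 were Pi16-led. The other sets kept all their genes in that setting, which favours them. Members were 57.4%, 53.9%, 66.9% and 54.6% of the gated fibroblasts in libraries 1 to 4, and 56.7% over all libraries (exact 95% binomial interval 55.4% to 58.0%). Library 3 was the highest, with an interval of 62.6% to 71.1%, and the pooled share without library 3 was 55.7%. Among all barcodes that passed the filter the order differed: members were 13.3%, 7.24%, 3.70% and 7.28% in libraries 1 to 4, so that library 3 was the lowest. There were 2.11 members for each Pi16-led cell, from 1.83 in library 2 to 3.05 in library 3. For each Mfap4-led cell there were 6.09 members, and 15.5 in library 3, which held only 21 Mfap4-led cells. Tissue digestion and sorting can set these shares, which was not tested.

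**Figure D1:**
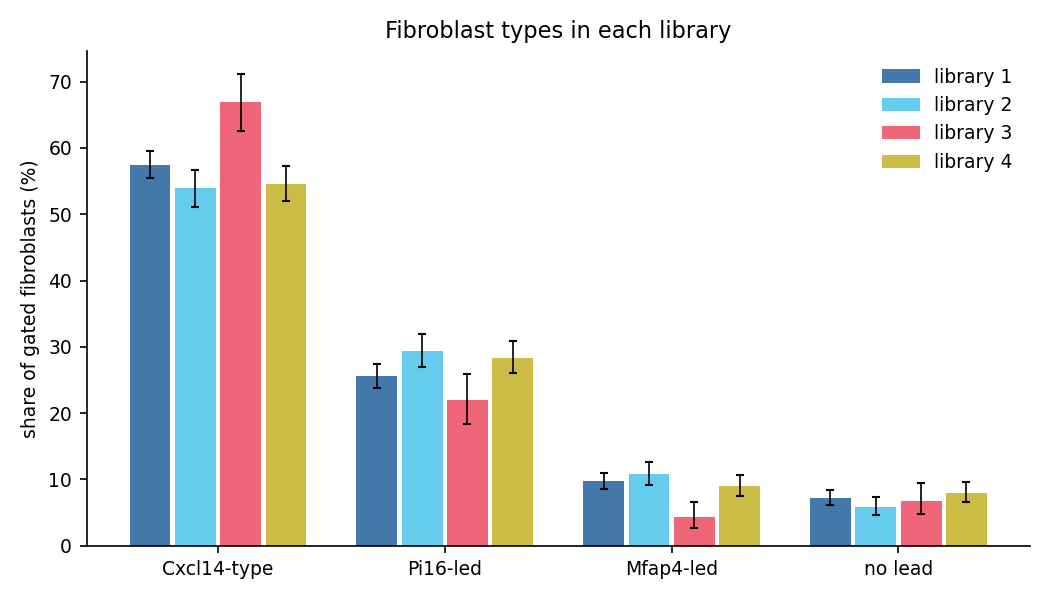
Share of gated fibroblasts (y axis, percent) in each fibroblast type (x axis), 1 bar per library with exact 95% binomial intervals for counting error. Cxcl14-type cells hold between 53.9% and 66.9% of the gated fibroblasts, with library 3 highest.

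The rule genes themselves, given as a description because they chose the cells, contributed unequally. Smoc2 gave 53.8% of the members' UMIs of the 3 genes, Dpep1 31.9% and Cxcl14 14.3%. Smoc2 had at least 1 UMI in 97.1% of members and Dpep1 in 92.5%, but Cxcl14 in 31.4%. The label therefore names Cxcl14 for cells of which 68.6% had no Cxcl14 UMI, and in most members the rule was met by Smoc2 and Dpep1.

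In members, Smoc2 stood at 1248, 1691, 1315 and 1380 CPM in libraries 1 to 4, against 497, 602, 679 and 595 CPM in Pi16-led cells and 216, 227, 203 and 253 CPM in Mfap4-led cells. Dpep1 stood at 938, 634, 857 and 813 CPM in members, against 361, 292, 505 and 349 CPM in Pi16-led cells and 233, 244, 285 and 263 CPM in Mfap4-led cells. Cxcl14 stood at 416, 232, 677 and 280.4 CPM in members, against 17.6, 15.9, 12.2 and 35.3 CPM in Pi16-led cells, while Mfap4-led cells had 11.6, 6.08, 0 and 5.60 CPM. The rule fixes the direction of these differences, so nothing is read from the groups not overlapping. In each library both other types had at least 203 CPM of Smoc2 and 233 CPM of Dpep1, and at most 35.3 CPM of Cxcl14.

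**Figure D2:**
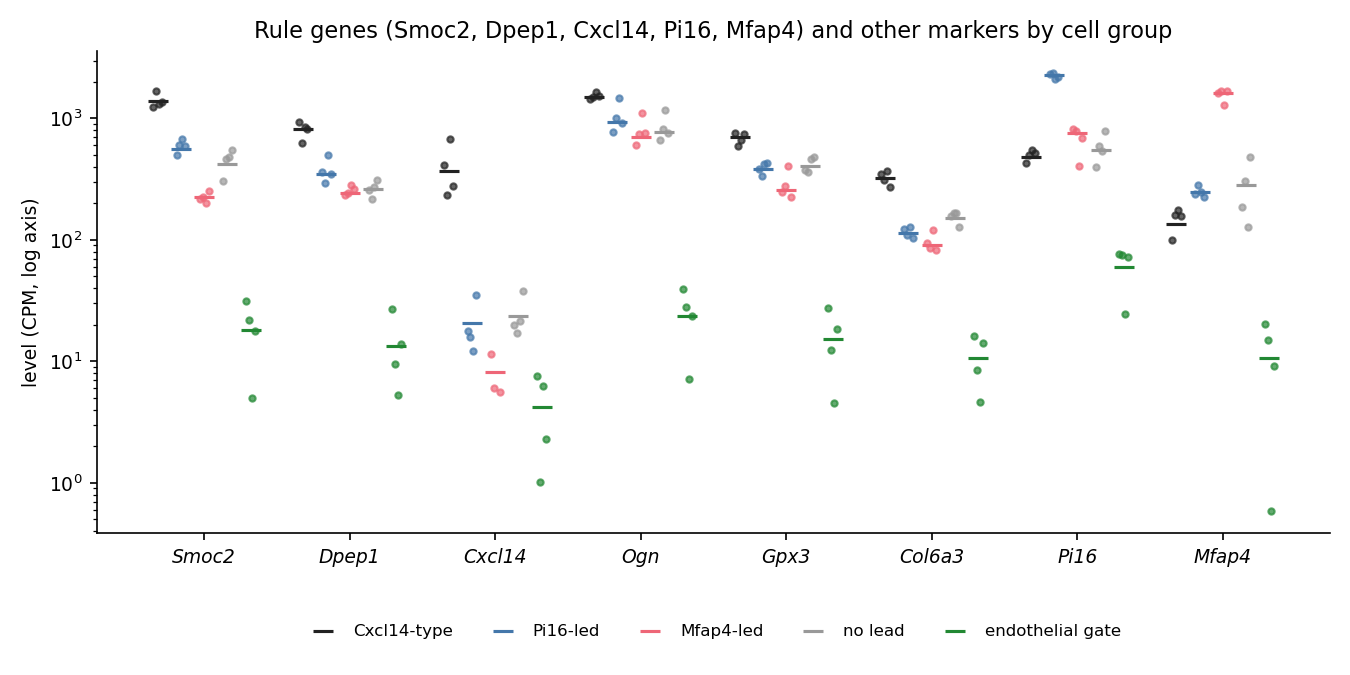
Level in CPM (log axis) of 5 rule genes and the 3 other markers in Cxcl14-type, Pi16-led, Mfap4-led and no-lead fibroblasts and in endothelial cells, with dashes for all libraries and dots for single libraries (values of 0 are not drawn). Smoc2, Dpep1, Cxcl14, Gpx3 and Col6a3 lie highest in Cxcl14-type cells in every library, as does Ogn, which had a UMI in 97.2% of Cxcl14-type, 89.2% of Pi16-led, 78.2% of Mfap4-led and 75.7% of no-lead cells.

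Cxcl14 was concentrated in few members. The tenth of members with the most Cxcl14 UMIs, 310 cells, held 78.2% of all its UMIs, and 1 cell held 102. The same number of cells held 25.1% of the UMIs of Smoc2 and 29.5% of those of Dpep1. After thinning each cell to 2000 UMIs the variance of Cxcl14 over its mean was 7.51, against 1.76 for Smoc2 and 1.87 for Dpep1. The only gene of 17 examined with a higher value was Apoe, which encodes apolipoprotein E, at 11.9. The immediate early genes Fos and Egr1, which cell stress can induce, had 4.43 and 4.07.

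**Figure D3:**
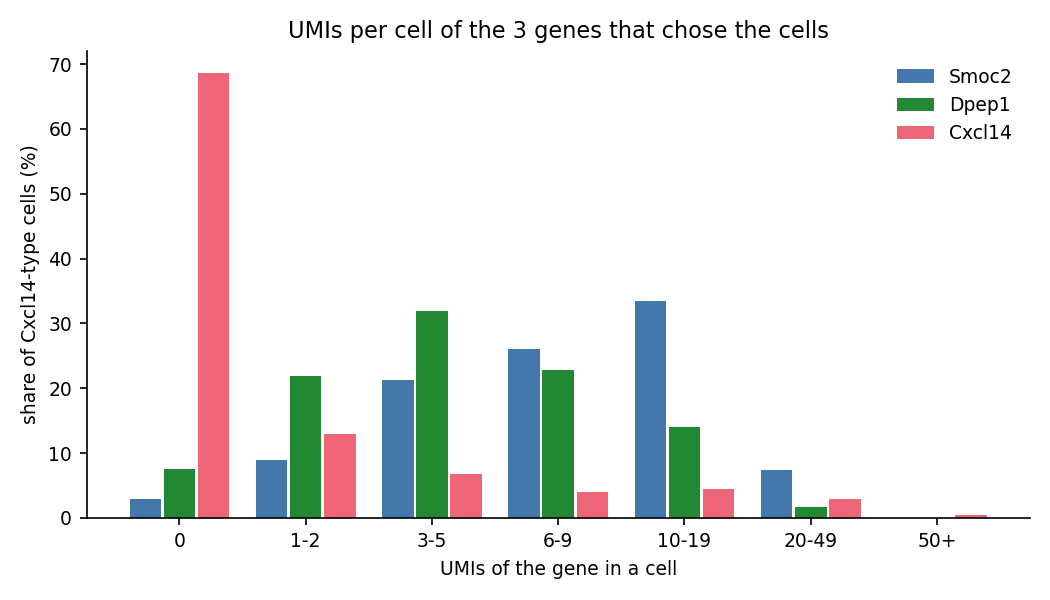
Share of Cxcl14-type cells (y axis, percent) by the number of UMIs of Smoc2, Dpep1 and Cxcl14 in a cell (x axis). Cxcl14 has no UMI in 68.6% of cells, whereas the median is 8 UMIs for Smoc2 and 4 for Dpep1. The tallest bar is 10 to 19 UMIs for Smoc2 and 3 to 5 for Dpep1, but the bins differ in width.

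Few genes differed by 2-fold between members with and without much Cxcl14. In a comparison chosen after values were seen, the 574 members with at least 3 Cxcl14 UMIs were set against the 2133 with none, over 3492 genes. Called here and below are genes that outside the rule reached a mean of at least 50 CPM over the 2 groups, differed at least 2-fold in the pooled ratio, and differed the same way in all 4 libraries. No gene was called higher (0%), and 1 was called lower (0.0286%), Ccn5, which encodes a matricellular protein, at 42.8 CPM in members with Cxcl14 and 86.4 CPM in those without. Ogn had a ratio of 0.888, Gpx3 of 1.07, Col6a3 of 1.15 and C3 of 1.22. In thinned cells, Ogn was detected in 69.5% of members with a Cxcl14 UMI and in 71.0% of those without. Members with Cxcl14 were more frequent in library 3, at 46.9%, than in libraries 1, 2 and 4, at 31.7%, 27.6% and 27.6%.

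The 3 markers that the rule did not count differed between the types in different degrees. They were chosen with results of these data known, so their direction is a description and no separate support for the type. Col6a3 stood at 349.9, 310.4, 367 and 275 CPM in members of libraries 1 to 4, against 123, 110.1, 127 and 103 CPM in Pi16-led cells. Its pooled ratio was 2.84 over Pi16-led cells (95% interval 2.68 to 3.01) and 3.60 over Mfap4-led cells (3.21 to 4.05), which had 90.5 CPM. Gpx3 averaged 704 CPM over the members' UMIs, against 385 CPM in Pi16-led cells (ratio 1.83) and 258 CPM in Mfap4-led cells (ratio 2.73). Ogn stood at 1501 CPM, against 929 CPM in Pi16-led cells (ratio 1.62) and 699 CPM in Mfap4-led cells (ratio 2.15). In all 4 libraries these 3 genes were higher in members than in either other type, but over Pi16-led cells only Col6a3 passed 2-fold. Being higher in all 4 libraries was common: 828 of 3492 tested genes were so over Pi16-led cells and 1036 of 3431 over Mfap4-led cells. Ogn over Mfap4-led cells was 1.98 without library 1. In library 3 Ogn was at 1639 CPM in members and at 1464 CPM in Pi16-led cells, the nearest pair of values.

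Detection per cell gave the same order. With each cell thinned to 1000 UMIs, Ogn was found in 70.7% of members, 51.0% of Pi16-led and 40.0% of Mfap4-led cells. Gpx3 was found in 49.4% of members, 29.7% of Pi16-led and 17.3% of Mfap4-led cells, and Col6a3 in 26.96%, 9.78% and 8.43% of the same 3 types. Without thinning the members' shares were 97.2% for Ogn, 93.9% for Gpx3 and 75.9% for Col6a3. In endothelial cells, which should lack these RNAs and had a median of 2486 UMIs against 6400.5 in members, the thinned shares were 0.890% for Ogn, 0.695% for Gpx3 and 0.629% for Col6a3.

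Members with exactly 3 UMIs of the set numbered 65, and they had 1057 CPM of Ogn, 549 CPM of Gpx3 and 229 CPM of Col6a3. The 51 cells just outside, with 2 UMIs and more than of each other set, had 1272, 455 and 169 CPM of Ogn, Gpx3 and Col6a3. Another 142 cells were tied with another set. Well above the minimum of 3 UMIs, 1384 members had 10 to 19 UMIs of the set and 961 had 20 or more. The lead over the other sets was narrower. When a set had to reach 2 times each other set plus 1, 2333 cells were members, 817 were Pi16-led and 254 were Mfap4-led. At least 1 UMI of the Pi16 set was present in 82.7% of members, and at least 1 of the Mfap4 set in 47.3%.

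General fibroblast genes did not separate the types. Col1a1, a chain of collagen I, had 504 CPM in members, against 475 CPM in Pi16-led and 609.6 CPM in Mfap4-led cells. Col3a1, the chain of collagen III, had 1872 CPM in members, against 1860.3 and 1974 CPM in Pi16-led and Mfap4-led cells. Lum, the proteoglycan lumican, had 1757 CPM in members, 1546 CPM in Pi16-led and 1935 CPM in Mfap4-led cells. Tcf21, a transcription factor of cardiac fibroblasts, had 105 CPM in members, 122 CPM in Pi16-led and 127 CPM in Mfap4-led cells. All of these levels in members lay within 2-fold of both other types.

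Markers of other cell types were scarce in members. Summed over each list, the 8 endothelial markers reached 106 CPM in members and 15110.5 CPM in endothelial cells, and the 6 macrophage markers reached 18.6 CPM in members and 12161 CPM in immune cells. Pecam1, Cdh5 and Ptprc were at 0 by the rule. Pericyte markers summed to 83.2 CPM, smooth muscle markers to 55.8 CPM, cardiomyocyte markers to 63.8 CPM and erythroid markers to 14.6 CPM. Neutrophil, Schwann, endocardial, lymphatic, mesothelial, B and T cell markers each summed to 28.8 CPM or less. Cycling markers summed to 13.1 CPM, and Mki67 had a UMI in 0.129% of members.

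Compared with Pi16-led fibroblasts, the members had more RNA of Hsd11b1, Adm, Gucy1a1 and the collagen VI chains Col6a3 and Col6a6, and less of 12 of the 17 tested genes of the adventitial list. The collagen VI chains Col6a1 and Col6a2 were within 2-fold, with ratios of 1.25 and 1.33. Of 3492 genes with at least 50 CPM, 40 were called higher (1.15%) and 53 lower (1.52%), and the median log2 ratio of all was -0.0034. Without library 3 the counts were 41 higher and 52 lower.

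Hsd11b1 encodes the enzyme that regenerates active glucocorticoid within cells. It stood at 152, 116, 306 and 154 CPM in members of libraries 1 to 4, against 33.3, 22.4, 67.4 and 38.7 CPM in Pi16-led cells. All 4 values in members exceeded all 4 in Pi16-led cells, and the pooled ratio was 4.74 (4.26 to 5.27). Adm, the vasodilator peptide adrenomedullin, stood at 104, 94.8, 114 and 83.0 CPM in members, against 18.3, 19.8, 46.4 and 13.9 CPM in Pi16-led cells. The pooled ratio of Adm was 4.94 (4.31 to 5.69), the highest among genes outside the rule that reached the 50 CPM floor. Below that floor Fbn2, which encodes fibrillin-2, had a higher ratio of 8.29, at 29.0 CPM in members and 3.50 CPM in Pi16-led cells. Gucy1a1, a subunit of the soluble guanylate cyclase that nitric oxide activates, had 118 CPM in members and 31.0 CPM in Pi16-led cells, a ratio of 3.79 (3.39 to 4.25).

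Matrix and adhesion genes followed. Col6a6, another collagen VI chain, had 133 CPM in members and 38.2 CPM in Pi16-led cells, a ratio of 3.47. Svep1, a large extracellular adhesion protein, and Spon1, the matrix protein spondin 1, had ratios of 2.91 and 2.68. Sgcd, a sarcoglycan of the membrane complex that links the cytoskeleton to the matrix, was the most abundant of the 15 highest, at 780.2 CPM in members and 276 CPM in Pi16-led cells. Signalling genes in the same group were Bmper, a secreted BMP-binding protein (ratio 3.38), Gfra1, a receptor for glial cell line-derived factor (3.30), Rgs17, a regulator of G protein signalling (3.42), and Ptn, the growth factor pleiotrophin (3.05). G0s2, an inhibitor of triglyceride lipase, had 370.5 CPM in members and 124 CPM in Pi16-led cells, a ratio of 2.99. The other 2 were Rbfox1, a splicing factor (2.74), and Inmt, a methyltransferase (2.54). Inmt in library 3 was at 155 CPM in members and 135 CPM in Pi16-led cells, and its ratio without library 3 was 3.02.

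Among genes outside the rule that reached the 50 CPM floor, the lowest ratio was that of Tmem100, a small transmembrane protein. It stood at 25.9, 21.7, 21.1 and 33.0 CPM in members of libraries 1 to 4, against 319.7, 371, 237 and 275 CPM in Pi16-led cells. The pooled ratio was 0.0813 (0.0740 to 0.0890), and the groups did not overlap. Below the floor Ackr2 had a lower ratio of 0.0581, at 2.49 CPM in members and 42.8 CPM in Pi16-led cells. Gfpt2, which starts hexosamine synthesis, had 247 CPM in members and 906 CPM in Pi16-led cells (ratio 0.273). Ugdh, which makes the UDP-glucuronate used for glycosaminoglycans, had 89.0 CPM in members and 313 CPM in Pi16-led cells (0.284). Dpp4, the cell surface peptidase CD26, had 29.3 CPM in members and 123 CPM in Pi16-led cells (0.238).

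Other genes among the 15 lowest were Limch1 (ratio 0.157), Efhd1, a mitochondrial calcium-binding protein (0.232), Adgrd1, an adhesion receptor (0.269), and Htra4, a serine protease (0.224). Postn, the matricellular protein periostin, had a ratio of 0.268, C7 of the terminal complement pathway 0.271, and Emilin2, an elastic-fibre glycoprotein, 0.306. Nbl1, a BMP antagonist, and Ackr3, a scavenging receptor for CXCL12, both had 0.310. The transcript A230001M10Rik had 0.239. Ly6c1 had 0.221 and is uncertain, since it shares reads with near-identical members of its family. In library 3 the members' C7 level of 101 CPM exceeded the 78.8 and 98.2 CPM of Pi16-led cells in libraries 1 and 2, although within each library C7 was lower in members.

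**Figure D4:**
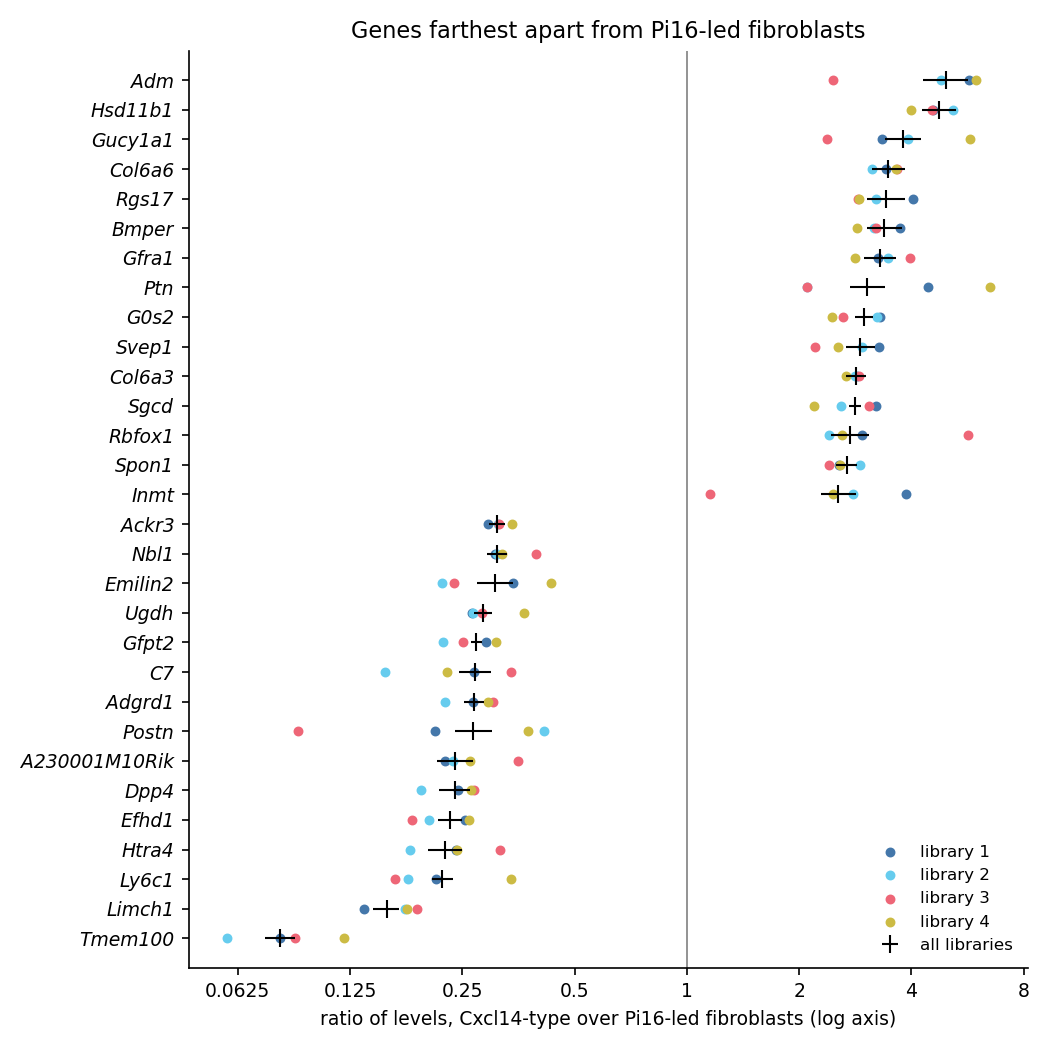
Ratio of levels, Cxcl14-type over Pi16-led fibroblasts (x axis, log scale), for the 15 highest and 15 lowest called genes (y axis), with coloured dots for single libraries and black marks for all libraries with 95% counting intervals. Adm leads at 4.94 and Tmem100 is lowest at 0.0813. For each gene the 4 libraries lie on the same side of 1 because the call requires it.

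Gene lists placed these genes in context, and each is read against the 1.15% and 1.52% of all genes. Of the adventitial fibroblast list, 17 of the 21 genes outside the rule reached the level floor. None was called higher and 12 were lower, with a median log2 ratio of -1.32. They include Limch1, Efhd1, Dpp4, Ly6c1, Gfpt2, Ackr3, Cd55, a complement-regulating protein at 237 CPM in members and 623 CPM in Pi16-led cells, and Mfap5, a microfibril protein with a ratio of 0.363. The list was chosen with results of these data known and overlaps what the Pi16 set selects.

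Of 15 tested elastic fibre and microfibril genes, Mfap5, Efemp1 (ratio 0.359) and Fbn1, which encodes fibrillin-1 (0.462), were lower and none higher. Of 11 tested collagens, Col6a3 and Col5a3, a collagen V chain with 251 CPM in members and 121 CPM in Pi16-led cells, were higher and Col14a1 was lower, at 239 CPM in members and 481 CPM in Pi16-led cells. No basement membrane gene of 13 was called, yet their median log2 ratio was 0.41, with Col4a1 at 751 CPM in members and 382 CPM in Pi16-led cells (ratio 1.96). The 7 tested small leucine-rich proteoglycans likewise had a median of 0.43 and no call.

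Among 11 tested lipid-handling genes 3 were higher and none lower. Lpl, the lipase that splits lipoprotein triglycerides, stood at 899.6, 836, 918 and 754 CPM in members of libraries 1 to 4, against 369, 415, 398 and 357 CPM in Pi16-led cells. The groups did not overlap, and the ratio was 2.24 (2.17 to 2.32). Apod, apolipoprotein D, had a ratio of 2.52 and Apoe of 2.32. Apoe was at 2735 CPM in members, 1180 CPM in Pi16-led cells and 4585 CPM in immune cells, and the part of RNA released from other cells in these values was not tested.

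Regulatory lists held few calls. Of 13 tested TGF-beta and BMP genes Bmp4, a BMP ligand (ratio 2.03), and Bmper were higher and Nbl1 was lower. Of 8 growth factors and cytokines Angpt1, the ligand of the Tie2 receptor (ratio 2.20), and Ptn were higher. Of 18 transcription factors Klf4 was lower, at 173 CPM in members and 439.9 CPM in Pi16-led cells. Of 7 activation genes Fap, a fibroblast surface protease, was higher (121 CPM in members, 54.9 CPM in Pi16-led cells), while Postn and Fn1, which encodes fibronectin, were lower (ratio 0.333 for Fn1). The 13 tested genes of the interferon and MHC class I list, the 13 immediate early and heat shock genes, the 17 matrix proteases and inhibitors and the 11 adhesion genes gave no call in either direction.

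In the remaining lists the calls were few. Gucy1a1 and Hsd11b1 were higher among 6 tested vasoactive and hormone genes, and Gsta3, a glutathione transferase, among 16 antioxidant genes (259 CPM in members, 127 CPM in Pi16-led cells). Cd55 and C7 were lower among 7 complement genes, Ackr3 among 4 chemokine genes and Igfbp6 among 5 IGF-binding proteins, with 419 CPM in members and 973 CPM in Pi16-led cells. No call fell among 2 tested Wnt genes and 3 retinoid genes, and the retinoid genes had a median log2 ratio of 0.43.

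Compared with Mfap4-led fibroblasts, the members had more RNA of 6 of 14 tested basement membrane genes, of Lpl and of Hsd11b1, and less RNA of elastin, of 5 of 8 tested activation genes and of 8 of 15 tested immediate early and heat shock genes. Of 3431 genes 93 were called higher (2.71%) and 91 lower (2.65%), with a median log2 ratio of 0.08. This comparison uses the same member cells as the one with Pi16-led cells, so the 2 are not independent. The 510 Mfap4-led cells held 3324862 UMIs, and library 3 gave 157808 of these. Without library 3 the counts were 94 and 92. A single Mfap4-led cell of library 3 carried 1095 haemoglobin UMIs, which lifted the erythroid markers to 341 CPM in that type, against 14.6 CPM in members.

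Morrbid, a long non-coding RNA, led the higher genes with 107, 137, 138 and 122 CPM in members of libraries 1 to 4, against 8.87, 9.12, 0 and 12.6 CPM in Mfap4-led cells. The groups were far apart, with a ratio of 13.0 (9.12 to 19.1). Hsd11b1 was again among the highest, at 161 CPM in members and 22.0 CPM in Mfap4-led cells, a ratio of 7.36 (5.83 to 9.41). Its lowest member library, at 116 CPM, lay above the highest Mfap4-led library, at 101 CPM. Lpl had 854 CPM in members and 171 CPM in Mfap4-led cells, a ratio of 5.00 (4.60 to 5.45). Pcsk6, a proprotein convertase, had 539 CPM in members and 117 CPM in Mfap4-led cells (4.59), and Lamb1, a laminin chain, had 439 CPM in members and 107 CPM in Mfap4-led cells (4.11).

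Adhesion and signalling genes in this group were Adgrl3, a latrophilin receptor (ratio 9.23), Gfra1 (9.02) and Bmper (5.11). Ccnd1, which encodes cyclin D1, had 142 CPM in members and 26.2 CPM in Mfap4-led cells (5.41). Col5a3 had a ratio of 5.34, Adamtsl3, a matrix protein related to ADAMTS proteases, 4.74, Gsta3 4.60 and Pla1a, a phospholipase, 7.14. Ifi205 and Ifi207 had ratios of 7.39 and 4.12. They belong to an interferon-inducible family of near-identical genes, so reads can be split between copies and their values are uncertain. Ifi205 in library 3 was at 201 CPM in members and 120.4 CPM in Mfap4-led cells, against 10.2 CPM or less in the Mfap4-led cells of the other libraries.

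Among the lower genes, Erbb4, a receptor for neuregulins, had the lowest ratio, 0.0437 (0.0349 to 0.0544). It stood at 10.7, 1.56, 0 and 1.13 CPM in members of libraries 1 to 4, against 113, 40.5, 482 and 151 CPM in Mfap4-led cells. Library 1 gave most of the members' UMIs, and the ratio without library 1 was 0.00906. Prg4, the lubricating proteoglycan, had 7.16 CPM in members and 94.7 CPM in Mfap4-led cells (0.0756), and Cpe, carboxypeptidase E, had 9.75 CPM in members and 122 CPM in Mfap4-led cells (0.0798). Postn stood at 17.2, 30.9, 13.5 and 23.3 CPM in members, against 157, 204, 317 and 266 CPM in Mfap4-led cells. The groups did not overlap, and its ratio was 0.106 (0.0942 to 0.120).

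Ccn2, a matricellular growth factor, had 85.4 CPM in members and 554 CPM in Mfap4-led cells (ratio 0.154), and Dkk3, a secreted protein of the Dickkopf family, had 25.6 CPM in members and 204 CPM in Mfap4-led cells (0.126). Piezo2, a mechanically gated channel, and Sox6, a transcription factor, had ratios of 0.108 and 0.152. The immediate early genes Egr3, Ier3 and Nr4a1 had 0.0719, 0.105 and 0.125. Pdlim3, a cytoskeletal protein, Aff2, a nuclear protein, and Hecw2, a ubiquitin ligase, had 0.0979, 0.108 and 0.126. Ccl19, a chemokine, had 0.133 and is uncertain because of near-identical gene copies.

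**Figure D5:**
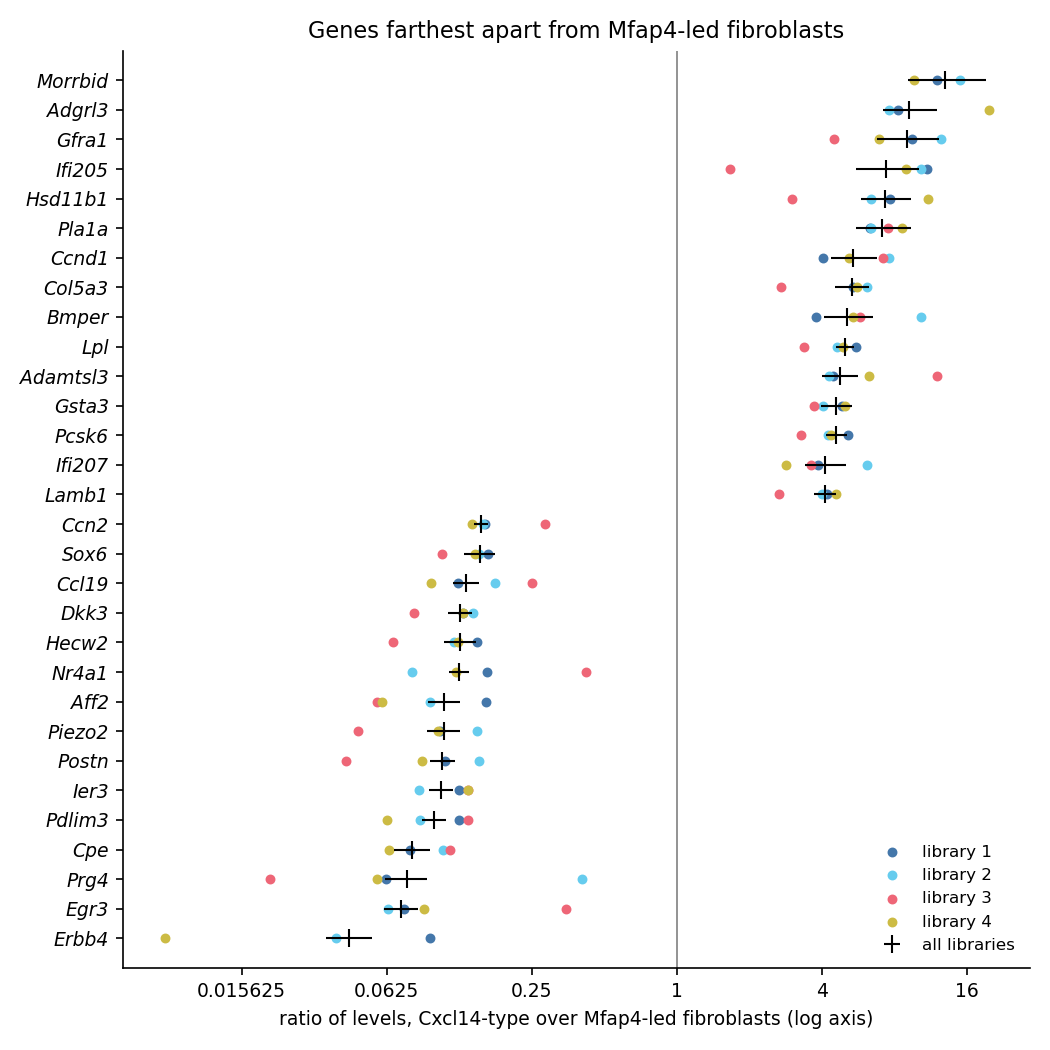
Ratio of levels, Cxcl14-type over Mfap4-led fibroblasts (x axis, log scale), for the 15 highest and 15 lowest called genes (y axis), with coloured dots for single libraries and black marks for all libraries with 95% counting intervals. Morrbid leads at 13.0 and Erbb4 is lowest at 0.0437, and a library at 0 CPM in either type has no dot.

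Basement membrane genes held the most called genes of the matrix lists in the comparison with Mfap4-led cells. Of 14 tested, 6 were higher and 2 lower, against 2.71% and 2.65% of all genes, with a median log2 ratio of 0.77. Col4a1 and Col4a2, the main collagen IV chains, stood at 751 and 261 CPM in members, against 247 and 90.2 CPM in Mfap4-led cells (ratios 3.04 and 2.89). Hspg2, which encodes perlecan, had a ratio of 2.52, Lama4 2.37 and Nid1, which encodes nidogen 1, 2.06. The 2 lower genes were the minor collagen IV chains Col4a5 (112 CPM in members, 268 CPM in Mfap4-led cells) and Col4a6 (33.0 CPM in members, 211 CPM in Mfap4-led cells). Endothelial markers summed to 106 CPM in members and 92.6 CPM in Mfap4-led cells. Endocardial markers summed to 28.8 CPM in members and 114 CPM in Mfap4-led cells, and smooth muscle markers to 55.8 CPM in members and 103 CPM in Mfap4-led cells. Pericyte markers summed to 83.2 CPM in members and 157 CPM in Mfap4-led cells, and among them Abcc9, a potassium channel subunit, was called lower (ratio 0.232). The part of these cells in the comparison was not tested.

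Elastic fibre genes went the other way in 3 of 15, with 1 higher and a median of -0.26. Eln, which encodes elastin, had 215 CPM in members and 1172 CPM in Mfap4-led cells, a ratio of 0.184 (0.176 to 0.192). Fbln1 (0.465) and Mfap2 (0.446), both of microfibrils or elastic fibres, were lower, and Loxl2, a cross-linking oxidase, was higher (3.74). Of the 11 tested collagens Col5a3 and Col6a3 were higher, and Col14a1 was lower with a ratio of 0.352. Of 7 small leucine-rich proteoglycans Ogn and Prelp were higher. Of 19 proteases and inhibitors Adamts5, a proteoglycan-cleaving protease (3.63), Pcolce and Serpine2 were higher, whereas Adamtsl2, Timp1 and Timp3 were lower, with Timp3 at 0.331.

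Activation genes had a median log2 ratio of -1.39 over 8 tested genes. Ccn1, Ccn2, Meox1, Postn and Timp1 were lower and Fap was higher, at 121 CPM in members and 31.0 CPM in Mfap4-led cells (ratio 3.90). Of 15 immediate early and heat shock genes 8 were lower and none higher, with a median of -1.18. Egr1 stood at 762, 386, 426 and 306 CPM in members of libraries 1 to 4, against 1550, 1667, 786 and 1172 CPM in Mfap4-led cells, and its ratio was 0.362. The values did not overlap, although 762 CPM in library 1 came close to 786 CPM in library 3. Fos had a ratio of 0.353 and Ier2 of 0.299. Median depth per cell was 6400.5 UMIs in members and 6321.5 UMIs in Mfap4-led cells, and the part of digestion in these genes was not tested.

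Of 12 tested lipid-handling genes 5 were higher: Lpl, Apod, Scara5, a scavenger receptor (ratio 3.34), and the transporters Abca8a and Abca8b. Apoe was lower, at 2735 CPM in members and 8535 CPM in Mfap4-led cells, a ratio of 0.320. Metallothioneins Mt1 and Mt2 were lower (0.348 and 0.338), while Gpx3 and Gsta3 were higher, among 16 antioxidant and metal-binding genes. Of the growth factors, Igf1, insulin-like growth factor 1, and Mdk, midkine, were lower (0.343 and 0.391). Bmp6 and Bmper were higher and Tgfb3 lower among 14 TGF-beta and BMP genes.

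Hsd11b1 was the single call among 7 vasoactive and hormone genes. C7 of the complement genes was lower. Dkk3 and Sfrp2 were lower among 5 Wnt genes, Gata6 and Meox1 among 18 transcription factors, Ccl19 among 5 chemokine genes and Sema3d among 10 adhesion genes. No call fell among 13 adventitial genes, 12 interferon and MHC class I genes, 6 IGF-binding proteins or 3 retinoid genes.

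The members stood on the same side of both other types for 24 genes. Both comparisons use the same member cells, so they are not independent and nothing is read from this count. Called higher than in both were 18 genes: Adgrl3, Apod, Bmper, Col5a3, Col6a3, D630003M21Rik, Fap, G0s2, Gfra1, Gsta3, Hsd11b1, Itpr1, Lpl, Ncald, Rem1, Rgs17, Spry1 and Tnik. These are 18 of the 40 over Pi16-led cells (1.15% of 3492 genes) and of the 93 over Mfap4-led cells (2.71% of 3431 genes). Called lower than in both were 6: C7, Col14a1, Csrp2, Postn, Tmem100 and Tnfaip6. They are 6 of the 53 lower than in Pi16-led cells (1.52%) and of the 91 lower than in Mfap4-led cells (2.65%). Spry1, an inhibitor of receptor tyrosine kinase signalling, had 196 CPM in members, against 83.3 CPM in Pi16-led and 97.4 CPM in Mfap4-led cells. Itpr1, a calcium release channel, had 292 CPM in members, against 144 CPM in Pi16-led and 131 CPM in Mfap4-led cells. Csrp2, a LIM-domain protein, had 88.5 CPM in members, against 219 CPM in Pi16-led and 541 CPM in Mfap4-led cells. Tnfaip6, a hyaluronan-binding protein, had 35.8 CPM in members, against 95.7 CPM in Pi16-led and 95.04 CPM in Mfap4-led cells. A pair of genes lay between the others: Apoe, and Pla1a with 131 CPM in members, 289 CPM in Pi16-led and 18.3 CPM in Mfap4-led cells. Against the 387 cells with no lead, 20 of 3458 genes were higher (0.578%) and 20 lower (0.578%).

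Members led by Dpep1 differed from those led by Smoc2 in Apoe and a set of matrix and signalling genes. Smoc2 was the most counted of the 3 genes in 1911 members (61.5%), Dpep1 in 754 (24.3%) and Cxcl14 in 262 (8.43%), and 5.82% were tied. Dpep1 led 29.6% of members in library 1, 15.5% in library 2, 28.2% in library 3 and 21.5% in library 4. Median depth was 6004.5 UMIs in Dpep1-led and 6630.0 UMIs in Smoc2-led members. Of 3486 genes 25 were called higher in Dpep1-led members (0.717%) and 10 lower (0.287%). The genes named from this comparison were chosen after their values were seen.

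Apoe had 5387 CPM in Dpep1-led and 1650.5 CPM in Smoc2-led members, a ratio of 3.26 (3.21 to 3.32). Sfrp2, a secreted Wnt modulator, had 155 CPM in Dpep1-led and 28.1 CPM in Smoc2-led members (ratio 5.52). Inmt had 227 CPM in Dpep1-led and 44.4 CPM in Smoc2-led members (5.11), and Chrm3, a muscarinic receptor, had 130.3 CPM in Dpep1-led and 31.0 CPM in Smoc2-led members (4.21). Sntg1, which encodes a syntrophin, had the highest ratio, 6.95, followed by Nkain2 with 5.89. Timp3 (2.36), Eln, with 351 CPM in Dpep1-led and 175 CPM in Smoc2-led members, Adm (2.60), Mdk (2.42) and Ccn2 (2.18) were also higher in Dpep1-led members. Eln, Timp3, Apoe, Sfrp2, Mdk and Ccn2 are also genes that were lower in members than in Mfap4-led cells.

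Lower in Dpep1-led members were Ccnd1, with 69.3 CPM in Dpep1-led and 179 CPM in Smoc2-led members (ratio 0.387), Morrbid (0.483), Igfbp5 (0.481), Inpp4b (0.449), Pde1c (0.419), Necab1 (0.396), Rbfox1 (0.456), Jup (0.475), Adgre5 (0.467) and Lepr, the leptin receptor (0.499). The markers outside the rule moved less. Ogn had a ratio of 1.35, Gpx3 of 1.20 and Col6a3 of 0.726 in Dpep1-led over Smoc2-led members.

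Cxcl14-led members differed from Smoc2-led members in 4 genes called higher (0.115%) and 3 lower (0.086%) of 3487. Higher were Chrm3, with 90.2 CPM in Cxcl14-led and 31.0 CPM in Smoc2-led members (ratio 2.91, 2.40 to 3.52), Penk, the enkephalin precursor (2.57), Inmt (2.45) and Vit, the matrix protein vitrin (2.13). Lower were Igfbp5, with 28.1 CPM in Cxcl14-led and 93.4 CPM in Smoc2-led members (0.301), Ccnd1 (0.454) and Ccn2 (0.482). Myoc (2.11), Apoe (1.94) and C3, the central complement protein (1.93), were the next highest ratios and were not called. Over Dpep1-led members, in a comparison also chosen after values were seen, no gene was called higher in Cxcl14-led members (0%) and 23 of 3421 were called lower (0.672%). Chrm3, Inmt and Vit were higher in Dpep1-led members too, and the comparisons share cells. The ratio of Ccn2 was 2.18 in Dpep1-led members, against 0.482 in Cxcl14-led members, each over Smoc2-led members.

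Between libraries the members' levels were close. Over 3493 genes at the floor the highest library exceeded the lowest by a median of 1.18-fold, and 31 genes (0.887%) differed more than 2-fold. Of these, 3 genes, Xist, Gm10076 and Ccn1, differed more than 3-fold. Gm10076 had 172, 156, 49.8 and 221 CPM in libraries 1 to 4, and is uncertain as a predicted gene that may share reads with a copy elsewhere. Ccn1 had 89.4, 63.5, 50.6 and 27.2 CPM. The count of genes over 2-fold was 19, 16, 17 and 24 without libraries 1, 2, 3 and 4, and leaving out a library cannot raise it. Of the 31 genes, library 2 was the lowest in 14 and the highest in 6. Library 1 was the highest in 13 and library 3 in 11.

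Several of these genes belong to groups named above. Fos had 357, 126, 311 and 178 CPM in libraries 1 to 4, and Egr1, Dusp1, Junb, Btg2 and Errfi1 were all highest in library 1, Errfi1 with 350.2 CPM against 122 CPM in library 4. Isg15, Irf9 and Oasl2, which interferon induces, were highest in library 2, Isg15 with 156 CPM there and 72.0 to 76.3 CPM elsewhere. Hsd11b1 was highest in library 3, at 306 CPM, and Ifi205, Nkain2 and Efemp1 were highest there as well. Zbtb16, a transcription factor induced by glucocorticoid, had 197 CPM in library 1 and 78.9 to 91.7 CPM in the others. No label gives the libraries a group, so these spreads were not tested against stroke, control or sex.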

How the data were processed

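The deposited table held raw UMI counts for 32286 features, made by the authors with Cell Ranger 7.1.0, per the file headers. The build was mm10, per the submitters' processing notes. Sources used here do not say how the 4 libraries were joined. Features sharing a symbol (40 symbols) were summed. Cells needed at least 500 UMIs, 250 genes and at most 15% mitochondrial UMIs. Scrublet (scanpy 1.11.5) marked doublets, which were kept. Its automatic threshold marked 0.0113% of cells in library 3, so 0.188 was used there.

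UMIs were summed per cell type. Ratios have exact conditional binomial intervals and shares exact Clopper-Pearson intervals, both for counting error only. A gene was called at 2-fold with the same direction in 4 libraries and a mean of 50 CPM. Genes of the rule were left out of the tested and called genes, and no pseudocount was added. Mitochondrial and ribosomal protein genes stayed in these counts and in the CPM totals. They were skipped only when the highest and lowest ratios were picked for naming. Named were the rule and marker genes, the 15 highest and 15 lowest called ratios per comparison, 10 each way within members, list genes and the 10 genes with the largest library spread. The members and lists were chosen with earlier results of these data known. Cells were thinned to 1000 UMIs for detection and to 2000 UMIs for variance. Results of some list genes are not reported here. The scripts were tested on simulated data. A planned comparison of stroke with control was not made, since the labels do not say which library is which sample. Alternatives covered the cell filter, doublets, the lead, the set, depth, the floor and each library left out. Python 3.11.15, numpy 2.4.6 and scipy 1.17.1 were used.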

Additional observations from a re-analysis of the deposited data

Results flagged for a closer look

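The reporter transcript tdTomato, which the comparisons above do not use, had 295 UMIs in Cxcl14-type fibroblasts, above the 3 UMIs taken as the limit of a count of 0. A UMI was found in 270 of 3108 cells, or 8.69% (95% binomial interval 7.72% to 9.73%), and in 9.08%, 10.8%, 12.9% and 4.23% of members in libraries 1 to 4. The level was 14.4 CPM in members, against 14.9 CPM in Pi16-led cells, 10.2 CPM in Mfap4-led cells, 20.9 CPM in endothelial cells and 161 CPM in immune cells. With cells thinned to 1000 UMIs the share was 1.38% of 3105 members (1.00% to 1.86%) and 1.54% of 4607 endothelial cells (1.21% to 1.94%), a subset of the 18976, of which 5.53% had a UMI without thinning. The source of these UMIs was not tested. Median depth was 6400.5 UMIs in members and 2486 UMIs in endothelial cells.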

How the results depend on the processing

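Members were 56.7% of gated fibroblasts. The share was 54.2% with a lead of 5 UMIs and 42.6% when the set had to reach 2 times each other set plus 1. It was 34.3% without Smoc2 and 45.5% without Dpep1 in the set, and 26.6% in thinned cells. Without Smoc2 the members were no longer the most frequent type, with 1881 members against 2399 Pi16-led cells. The settings without a gene also lowered the members' minimum, and the other sets kept all their genes, which favours those sets. Leaving out each library gave 55.7% to 57.6%. Genes higher than in Pi16-led cells numbered 40, and 79 with the 2 times lead, 26 without Smoc2, 78 in thinned cells, 547 with a floor of 10 UMIs and 9 with a floor of 200 CPM (38 to 45 without each library). Lower genes numbered 53, and 100 with the 2 times lead, 368 with the floor of 10 UMIs and 16 with that of 200 CPM (48 to 57 without each library). Genes higher than in Mfap4-led cells numbered 93, and 60 without Smoc2, 238 in thinned cells, 736 with the floor of 10 UMIs and 21 with that of 200 CPM (94 to 99 without each library). Lower genes numbered 91, and 44 in thinned cells, 514 with the floor of 10 UMIs and 21 with that of 200 CPM (86 to 98 without each library). A lower floor tests more genes and a higher one fewer, and the cause of the other shifts was not tested.

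The ratios checked were those of Ogn, Gpx3 and Col6a3 and of the 15 highest and 15 lowest called genes per comparison. Genes picked for extreme ratios seldom reverse, so the lack of reversals is no separate support. Settings that changed only the floor or dropped the need for the same direction in 4 libraries leave each ratio as it was. Their values are counted among those that stayed. Over 65 single-gene ratios and 19 settings, none of 1230 values changed direction. Of these, 233 left the counting interval of the value reported and 56 lay beyond a factor of 1.5 of it. A total of 1220 stayed on their side of 2-fold. The exceptions were Col6a3 over Pi16-led cells (1.98 without Smoc2), Rbfox1 (1.80 without Smoc2), Inmt (1.42 without Dpep1, 1.84 in thinned cells), Gpx3 over Mfap4-led cells (1.96 in thinned cells) and over Pi16-led cells (1.83, and 2.15 with the 2 times lead), and Ogn over Mfap4-led cells (1.62 without Dpep1, 1.90 in thinned cells, 1.98 without library 1, and just under 2-fold without Smoc2).

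No paired analysis was possible because stroke and control samples cannot be matched to libraries by the labels. Comparisons between cell types used the direction within each library. The planned fits of stroke against control were not run for the same reason. Library 3 had 326 members and 21 Mfap4-led cells, which limits its values for genes of low level.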
